A study of Mus musculus with 6 samples.

Results

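AP-1 is a family of transcription factors, and the 10 genes described here, Fos, Fosb, Fosl1, Fosl2, Jun, Junb, Jund, Atf3, Jdp2 and Maff, encode its main subunits and close relatives. They were taken by gene symbol from a table of 25746 genes, and each of the 10 had its own entry. Mouse cardiac fibroblasts were profiled by RNA-seq, in 2 Acta2 KO and 2 wild-type (WT) samples, and ATAC-seq, in which a transposase cuts and tags accessible DNA, in 1 Acta2 KO and 1 WT sample. Acta2 encodes α-smooth muscle actin, the actin that marks fibroblasts turned into contractile myofibroblasts, and the comparison asks which genes differ when it is lost.

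The protocols in the labels describe more than a single source of cells and do not assign a source to each library. In the first, fibroblasts of Acta2fl/fl mice (the KO) and of WT mice were both infected with an adenovirus that carries Cre recombinase, followed by 2 days of TGF-β, so the WT cells carried the virus and the cytokine as well. In the second, fibroblasts marked by a Tcf21 lineage reporter (eGFP) were sorted from hearts. The labels of all samples also state that mice were dosed with tamoxifen to activate MerCreMer, 75 mg per kg daily over 5 days beginning at an age of 6 weeks. They give infarction by ligation of the left coronary artery at 9 weeks and further tamoxifen from 1 day before it to 5 days after it. Nothing in the labels says that the 2 samples of a genotype came from separate animals or cultures, so the p-values reflect nothing more than how far these particular samples spread, and that spread may be technical.

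AP-1 proteins bind DNA as pairs joined through a basic leucine zipper. Jun proteins pair with each other or with Fos proteins, whereas Fos proteins need a partner, and the pairs bind the element TGACTCA or, with ATF and CREB partners, TGACGTCA. Many of these genes are immediate-early genes, switched on within minutes by serum, stress or growth factors through MAP kinases and serum response factor (SRF), and in fibroblasts AP-1 is known for driving matrix metalloproteinase, cytokine and proliferation genes.

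Estimated counts summed to 11370115 and 10864365 in the KO libraries of RNA-seq, against 8429166 and 9096811 in the WT libraries. Acta2 itself stood at 256 and 265.5 CPM (estimated counts scaled to a common library size) in KO samples, against 2186 and 2200 CPM in WT samples. Its log2 fold change was −3.07 (SE 0.0298, edgeR quasi-likelihood test with Benjamini-Hochberg adjustment over 12192 genes, adjusted p = 1.59e-32), in the direction of the labels. The fibroblast label was checked against 12 markers: all 12 passed the filter on low counts, and their summed level was 4742 and 4714 CPM in KO against 6116 and 5980 CPM in WT. Of the cardiomyocyte markers, 1 of 9 passed the filter, and Nppa and Pln had no count in any library.

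Sequence at 5 of the loci is shown here because it holds matches to elements that SRF or AP-1 and its partners are known to bind. Peaks at Fosl2, Jund and Jdp2 held such matches as well, and these are not printed. The matches are by letters alone, and whether these sites control the genes was not tested. All of the sequence lies in or beside ATAC-seq peaks. The first pair are windows of 100 bases on each side of the summit of the peak at the gene start, of the WT list at Fos and of the KO list at Fosb. Capitals mark a CArG box, the SRF-binding element, with its first base at −309 from the start of Fos and −266 from that of Fosb (negative positions lie upstream). Each box lies inside the peak of both lists but in the summit window of that 1 list only. The Fos box belongs to the serum response element for which this promoter is known. The windows are printed 5′ to 3′ on the plus strand of GRCm38 (mm10), which is the opposite strand to Fosb.
Fos, chr12:85473563-85473763: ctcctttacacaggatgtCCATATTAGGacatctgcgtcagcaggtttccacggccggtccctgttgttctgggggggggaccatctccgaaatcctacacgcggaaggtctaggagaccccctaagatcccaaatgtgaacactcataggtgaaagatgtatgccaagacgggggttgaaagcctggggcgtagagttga
Fosb, chr7:19310123-19310323: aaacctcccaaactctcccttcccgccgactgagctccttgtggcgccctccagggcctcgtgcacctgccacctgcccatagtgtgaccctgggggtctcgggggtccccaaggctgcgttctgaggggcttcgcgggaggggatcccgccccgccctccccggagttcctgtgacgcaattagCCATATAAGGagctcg

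The next windows are centred on summits of peaks away from gene starts, again on the plus strand of GRCm38. Capitals mark TGACTCA upstream of Fosb, its reverse complement TGAGTCA upstream of Atf3 and TGACGTCA upstream of Jun, at −6736, −4155 and −5263 from the gene starts. The Fosb and Atf3 elements fell in the summit windows of both the KO and the WT list, the Jun element in that of the KO list. The fold enrichment over background was 19.6 in KO and 19.7 in WT for the Fosb peak, and 11.1 and 8.63 for the Atf3 peak. The Jun peak was weak, with a fold of 4.68 in KO, above 26.38% of the KO list. In WT it had a fold of 3.70, above 10.44% of the WT list. The Atf3 window was chosen after its values were seen.
Fosb, chr7:19316697-19316897: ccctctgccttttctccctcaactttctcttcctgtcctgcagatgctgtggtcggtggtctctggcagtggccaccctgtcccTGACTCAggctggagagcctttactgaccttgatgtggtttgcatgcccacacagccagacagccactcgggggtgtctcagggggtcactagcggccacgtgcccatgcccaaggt
Atf3, chr1:191222078-191222278: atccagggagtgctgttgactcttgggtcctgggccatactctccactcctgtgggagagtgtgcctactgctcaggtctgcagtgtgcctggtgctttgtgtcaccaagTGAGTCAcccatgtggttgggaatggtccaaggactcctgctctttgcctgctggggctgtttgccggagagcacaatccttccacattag
Jun, chr4:95057285-95057485: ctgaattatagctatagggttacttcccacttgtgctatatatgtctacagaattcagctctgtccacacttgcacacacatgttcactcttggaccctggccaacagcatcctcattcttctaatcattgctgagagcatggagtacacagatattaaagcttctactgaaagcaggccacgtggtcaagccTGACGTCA

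The last sequence is the 250 bases before an annotated start of Maff, taken from RefSeq (GRCm38.p6) on the plus strand, which is the strand of the gene. Capitals mark TGACGTCA with its first base at −29 from that start.
Maff, chr15:79347270-79347519: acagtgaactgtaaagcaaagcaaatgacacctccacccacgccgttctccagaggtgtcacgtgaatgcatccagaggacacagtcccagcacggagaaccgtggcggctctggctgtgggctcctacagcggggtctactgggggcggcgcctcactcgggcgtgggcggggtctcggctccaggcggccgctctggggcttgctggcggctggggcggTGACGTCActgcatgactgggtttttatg

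In KO fibroblasts 6 of the 10 AP-1 genes were higher than in WT and none was lower (edgeR, adjusted p under 0.05, 9 tested). Those that rose were the 3 Jun genes, Jund by 1.72-fold, Junb by 1.34-fold and Jun by 1.27-fold, together with Maff by 1.34-fold, Atf3 by 1.26-fold and Fosl1 by 1.18-fold. Fos, Fosb and Fosl2 did not pass the test, and Jdp2 was too low to be tested. The 9 tested members had a median log2 fold change of 0.34, against 0.00 for all tested genes. As background, 18.3% of the 12192 tested genes were called higher in KO and 17.4% lower, at an adjusted p of 0.05. Both KO samples lay above both WT samples for 7 of the 9 members, which was so for 34.3% of all tested genes.

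**Figure D1:**
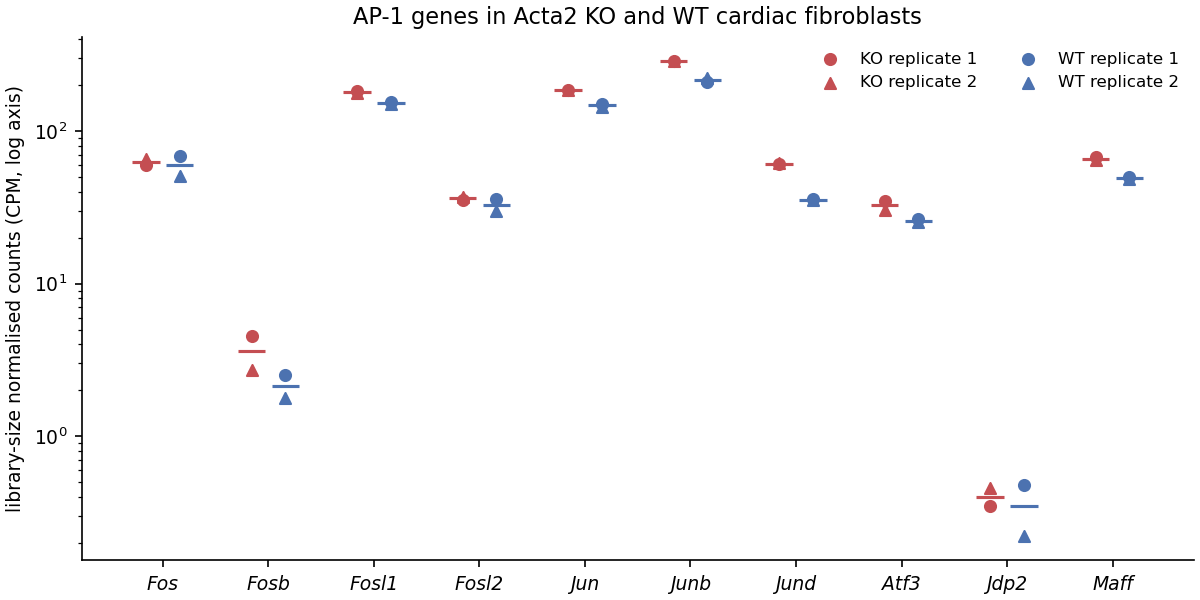
Level of each AP-1 gene in every RNA-seq sample, as CPM on a log axis, with KO in red left of WT in blue, a circle for replicate 1, a triangle for replicate 2 and a bar for the mean (n = 2). The KO points lie above the WT points for Fosb, Fosl1, Jun, Junb, Jund, Atf3 and Maff, and the genotypes overlap for Fos, Fosl2 and Jdp2.

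The 3 Jun genes had the smallest p-values of the family. Jun (ENSMUSG00000052684, chr4:95049034-95052222, minus strand) encodes c-Jun, the founding partner of the family. It stood at 185.7 and 186.3 CPM in KO, against 150.5 and 143.9 CPM in WT, and the genotypes did not overlap. The log2 fold change of Jun was 0.34 (SE 0.0477, edgeR adjusted p = 2.29e-06). Junb (ENSMUSG00000052837, chr8:84974484-84978718, minus strand) encodes JunB, which is known both to pair with Fos proteins and to restrain c-Jun. Junb had 289.3 and 289.4 CPM in KO, against 208.4 and 223.3 CPM in WT, so that the 2 KO samples were almost equal and both stood above WT. The log2 fold change of Junb was 0.42 (SE 0.0437, edgeR adjusted p = 1.21e-08).

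Jund (ENSMUSG00000071076, chr8:70698949-70700616, plus strand) encodes JunD, the Jun protein that is usually present in resting cells and the least dependent on stimulation. Its level was 60.93 and 61.56 CPM in KO, against 36 and 35.14 CPM in WT. The samples of each genotype lay close together and far from the other genotype. The log2 fold change of Jund was 0.78 (SE 0.0769, edgeR adjusted p = 4.4e-09), above 94.46% of all tested genes. Of the 100-base windows of its exons, 43.5% were shared with the opposite-strand gene Gm11175, and the library kit is not stated to keep strand, so reads of these genes cannot be told apart and the value for Jund is uncertain.

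Of the 4 Fos genes, 1 rose. Fosl1 (ENSMUSG00000024912, chr19:5447547-5455946, plus strand) encodes Fra-1, a Fos protein that is itself induced by AP-1 and lasts longer than c-Fos. It had 181.5 and 177 CPM in KO, against 154.2 and 150.9 CPM in WT, with no overlap and a small distance. For Fosl1 the log2 fold change was 0.23 (SE 0.0474, edgeR adjusted p = 0.000327). Exons of the opposite-strand gene Ccdc85b covered 48.3% of its windows, and Ccdc85b was also higher in KO (log2 fold change 0.40, edgeR adjusted p = 0.00276), so the value for Fosl1 is uncertain too.

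Fos (ENSMUSG00000021250, chr12:85473890-85477273, plus strand) encodes c-Fos, the immediate-early protein of the family. It had 59.94 and 65.25 CPM in KO, against 68.6 and 50.99 CPM in WT, so that both KO values lay between the WT values. The log2 fold change was 0.07 (95% interval −0.11 to 0.25, edgeR adjusted p = 0.574), and it turned on a single WT library: 0.29 without WT replicate 1 (edgeR adjusted p = 0.00589) and −0.14 without WT replicate 2 (edgeR adjusted p = 0.236). Fosl2 (ENSMUSG00000029135, chr5:32135801-32157842, plus strand) encodes Fra-2, whose overexpression is known to cause fibrosis in mice. Fosl2 had 35.23 and 37.14 CPM in KO, against 35.62 and 29.86 CPM in WT, and the genotypes overlapped. Its log2 fold change was 0.15 (95% interval −0.05 to 0.34, edgeR adjusted p = 0.236), and it too moved with the WT libraries: 0.27 without WT replicate 1 (edgeR adjusted p = 0.0553) and 0.02 without WT replicate 2 (edgeR adjusted p = 0.916).

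Fosb (ENSMUSG00000003545, chr7:19302696-19310051, minus strand) encodes FosB, and its spliced form ΔFosB is known for its stability. It was near the lower limit of the test, with 52 and 30 estimated counts in KO against 21 and 16 in WT, or 4.557 and 2.738 CPM in KO against 2.518 and 1.77 CPM in WT. The genotypes did not overlap, but KO replicate 2 and WT replicate 1 nearly met. The log2 fold change of Fosb was 0.78, as large as that of Jund, with a wide 95% interval of 0.09 to 1.46, and it did not pass (edgeR adjusted p = 0.0727). The value turned on single libraries: it was 1.09 without KO replicate 2 (edgeR adjusted p = 0.027) and 1.04 without WT replicate 1 (edgeR adjusted p = 0.0467), but 0.35 without KO replicate 1 (edgeR adjusted p = 0.629) and 0.53 without WT replicate 2 (edgeR adjusted p = 0.32).

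The remaining members are relatives of Fos and Jun with the same kind of zipper, and each is known as a repressor in some of its pairs. Maff (ENSMUSG00000042622, chr15:79346621-79359076, plus strand) encodes a small Maf protein, which has the zipper but no activation domain. It had 67.3 and 64.52 CPM in KO, against 50.25 and 48.22 CPM in WT, well apart. Its log2 fold change was 0.42 (SE 0.071, edgeR adjusted p = 3.11e-05), the same as that of Junb.

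Atf3 (ENSMUSG00000026628, chr1:191170296-191218039, minus strand) encodes a stress-induced factor that represses as a pair with itself. It had 35.05 and 30.21 CPM in KO, against 26.62 and 25.22 CPM in WT, without overlap but with more spread in KO. The log2 fold change of Atf3 was 0.33 (SE 0.102, edgeR adjusted p = 0.0113), and the call was the least firm of the 6. It was lost with DESeq2 (adjusted p = 0.238), without KO replicate 1 (0.22, edgeR adjusted p = 0.214) and without WT replicate 2 (0.29, edgeR adjusted p = 0.0594). Jdp2 (ENSMUSG00000034271, chr12:85599027-85639878, plus strand), which encodes a repressor that pairs with c-Jun, had 4 and 5 estimated counts in KO against 4 and 2 in WT and was not tested.

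**Figure D2:**
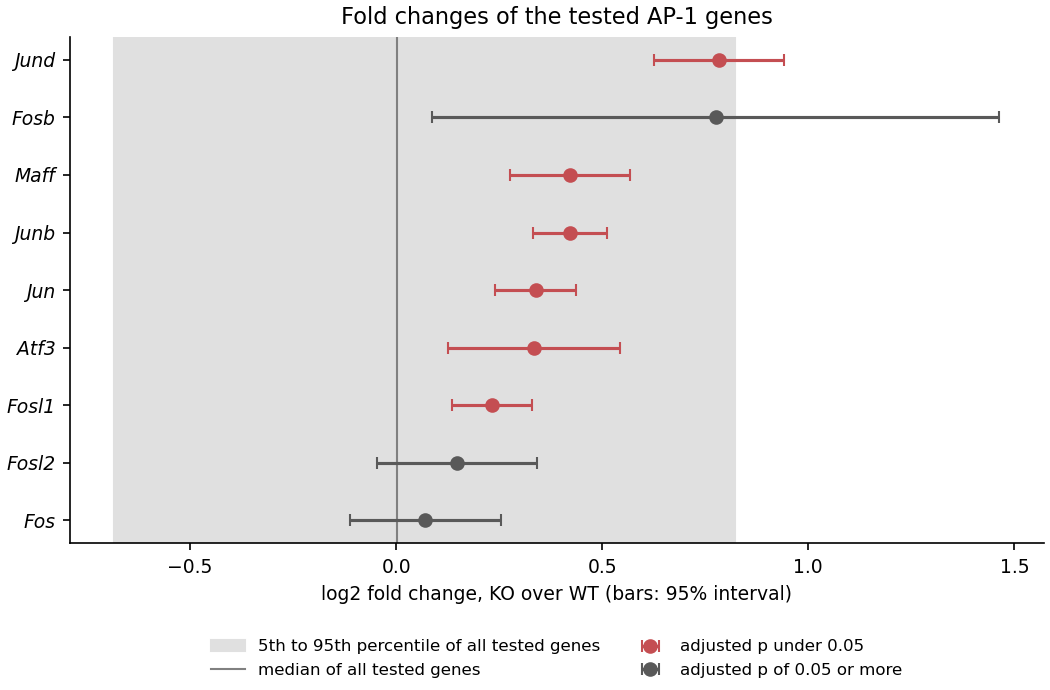
Log2 fold change of the 9 tested AP-1 genes, KO over WT, with 95% intervals, in red where the adjusted p was under 0.05 and in grey where it was not, over a band that spans 5% to 95% of all tested genes. All 9 points lie inside the band and right of the median of all genes, and Jund and Fosb, both at 0.78, lie farthest from that median.

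The tests rest on a very small spread between samples, a biological coefficient of variation (BCV) fitted at 0.0311. With a BCV of 0.1 assumed instead, Junb and Jund were the 2 members still called, and with 0.2 none of the 9 was.

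Divided by exon length, so that levels can be compared between genes, the family was led by Junb, Fosl1 and Jun in both genotypes. Junb stood at 125.7 and 125.8 CPM per kb of exon in KO, against 90.58 and 97.05 CPM per kb in WT. Fosl1 followed with 89.27 and 87.06 CPM per kb in KO, against 75.86 and 74.23 CPM per kb in WT, and Jun with 58.25 and 58.43 CPM per kb in KO, against 47.19 and 45.11 CPM per kb in WT. These 3 genes made up 71.5 and 71.5% of the summed level of the family in the KO samples, against 71.1 and 73.9% in the WT samples. At the other end, Fosl2 lay between 3.64 and 3.84 CPM per kb in KO and between 3.09 and 3.68 CPM per kb in WT, while Fosb and Jdp2 stayed below 1 CPM per kb in all 4 samples.

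The order of neighbours held beyond the spread between samples except around Fos. In KO, Jund came next after these 3 with 36.53 and 36.91 CPM per kb, above Fos with 25.48 and 27.74 and Maff with 25.94 and 24.87, and the levels of Fos and Maff overlapped. In WT, Fos came next with 29.16 and 21.68 CPM per kb, above Jund with 21.58 and 21.07, so that the lower Fos value and the higher Jund value nearly met, and Maff followed with 19.37 and 18.59. Jund made up 9.563 and 9.731% of the summed family level in KO, against 7.185 and 7.192% in WT, whereas Fos made up 6.671 and 7.315% in KO, against 9.708 and 7.401% in WT. With 2 samples a genotype, no test of these shares was made, since the smallest exact permutation p would be 0.333.

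Summed over the 3 Jun genes, the level was 220.5 and 221.1 CPM per kb in KO, against 159.4 and 163.2 CPM per kb in WT. Summed over the 4 Fos genes it was 119.1 CPM per kb in both KO samples, against 109.1 and 99.28 CPM per kb in WT. The ratio of the Jun sum to the Fos sum was thus 1.851 and 1.857 in KO, against 1.461 and 1.644 in WT, without overlap. It includes Jund and Fosl1, whose values are uncertain because they share sequence with opposite-strand genes. Fos also differed between the WT samples, with 29.16 and 21.68 CPM per kb. All 10 genes together came to 382 and 379.3 CPM per kb in KO, against 300.4 and 292.9 CPM per kb in WT.

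**Figure D3:**
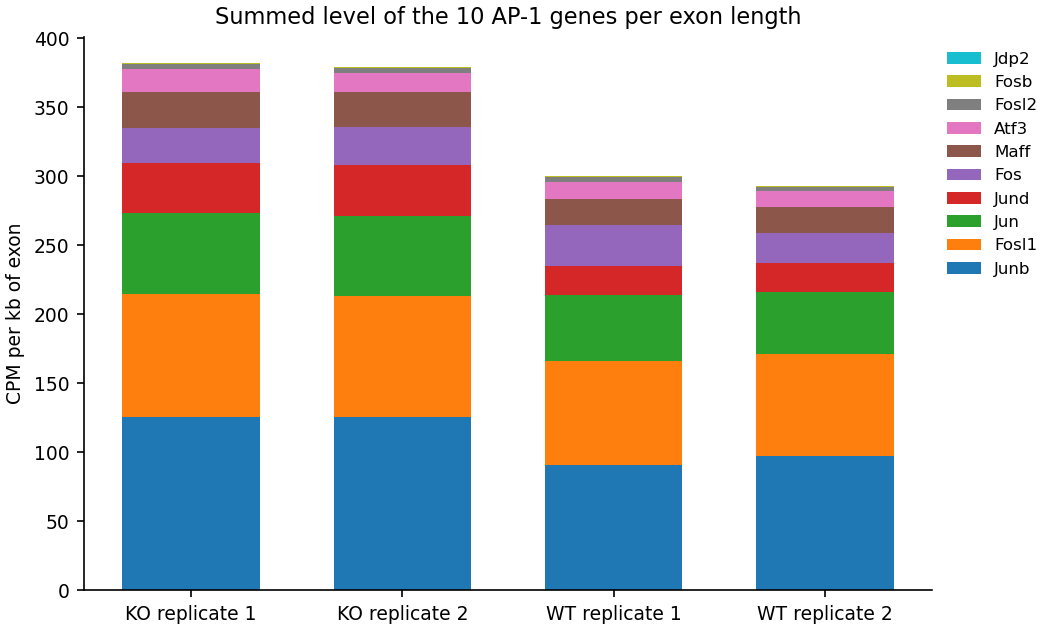
Summed level of the 10 AP-1 genes in each RNA-seq sample, in CPM per kb of exon, with a colour for each gene, Junb at the bottom. The KO columns reach 382 and 379.3 and the WT columns 300.4 and 292.9, and the red band of Jund is wider in KO.

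The genes that surround AP-1 were described through gene lists. Each count of called genes in these lists is to be read beside the share over all 12192 tested genes, 18.3% higher in KO and 17.4% lower. Among 34 other bZIP genes, which can pair with Jun or Fos or compete for their sites, 27 were tested, 8 rose, 2 fell and the median log2 fold change was 0.17. Creb3l1, which encodes a membrane-bound factor released by proteolysis, averaged 83.04 ± 1.66 CPM in KO samples and 56.35 ± 2.9 CPM in WT samples (SD, n = 2 each; edgeR adjusted p = 1.11e-07). Cebpb, the C/EBPβ gene, rose to 177.8 ± 1.76 CPM in KO samples, against 134.4 ± 8.66 CPM in WT samples (SD, n = 2 each; edgeR adjusted p = 3.58e-07), and Ddit3, the CHOP gene of the stress response, to 208.7 ± 5.57 CPM in KO, against 165.3 ± 1.04 CPM in WT (edgeR adjusted p = 1.58e-06). The 2 that fell were Cebpd (log2 fold change −0.40, edgeR adjusted p = 2.39e-07) and Atf5 (−0.42, edgeR adjusted p = 0.000373).

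Upstream of AP-1, 31 of 33 kinase and phosphatase genes, most of the MAP kinase pathway, were tested, and 13 rose and the other 18 did not pass, with a median log2 fold change of 0.21. Map3k1, the MEKK1 kinase that acts above JNK, had 75 and 82 estimated counts in KO, against 7 and 7 in WT. Its log2 fold change of 3.10 (SE 0.327, edgeR adjusted p = 1.6e-08) was the largest of the lists, at a low level of 7.028 ± 0.645 CPM in KO samples and 0.8068 ± 0.0461 CPM in WT samples (SD, n = 2 each). Mapk14, the p38α kinase, averaged 104.4 ± 0.536 CPM in KO samples and 80.87 ± 1.12 CPM in WT samples (SD, n = 2 each; edgeR adjusted p = 7.65e-06). Of the 7 Dusp genes of the list, which encode phosphatases that switch MAP kinases off, 4 rose, among them Dusp1 by 0.33 (edgeR adjusted p = 2.93e-08) and Dusp5 by 0.66 (edgeR adjusted p = 3.26e-07) on the log2 scale, while Dusp2, Dusp6 and Dusp10 did not pass. Mapk8 and Mapk9, which encode JNK1 and JNK2, were looked at after the values were seen and did not pass, with log2 fold changes of 0.14 and −0.13. Fewer genes of this list were called with DESeq2, 6 in place of 13.

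Of the factors that act on the CArG box and its neighbouring ETS site, 6 of 7 were tested and 1 rose. Srf had 8.237 and 9.309 CPM in KO, against 3.238 and 4.314 CPM in WT, with no overlap. Its log2 fold change was 1.21 (SE 0.217, edgeR adjusted p = 7.64e-05). Elk1, Elk3, Elk4, Mrtfa and Mrtfb did not pass, and the median of the 6 was 0.22.

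The other immediate-early genes split. Of 28 tested, 14 rose and 1 fell, with a median log2 fold change of 0.17. Ier3, an early gene that limits cell death, averaged 282 ± 0.584 CPM in KO samples and 183.3 ± 11.6 CPM in WT samples (SD, n = 2 each; edgeR adjusted p = 1.79e-11). Ppp1r15a, the GADD34 gene, rose by 0.47 (edgeR adjusted p = 7.23e-11), Btg1, an inhibitor of proliferation, by 0.40 (edgeR adjusted p = 8.29e-09) and Nr4a1, an orphan nuclear receptor, by 0.93 (edgeR adjusted p = 8.09e-07) on the log2 scale. Klf4, a Krüppel-like factor, was the 1 that fell, to 24.9 ± 3.12 CPM in KO samples, against 38.37 ± 0.166 CPM in WT samples (SD, n = 2 each; edgeR adjusted p = 1.25e-05). Egr1, Egr2, Ier2 and Myc, which are often induced together with Fos, did not pass, with log2 fold changes of 0.06, −0.02, −0.07 and 0.03. They are named here after their values were seen.

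Genes known as AP-1 targets moved both ways. Of 34 tested, 10 rose and 12 fell, and the median log2 fold change was −0.01. The matrix metalloproteinase genes called were lower in KO: Mmp3 (stromelysin 1) fell to 1352 ± 10.5 CPM in KO samples, against 2559 ± 22.1 CPM in WT samples (SD, n = 2 each; edgeR adjusted p = 3.35e-22), and Mmp10 to 238.3 ± 8.94 CPM in KO samples, against 395.9 ± 9.05 CPM in WT samples (SD, n = 2 each; edgeR adjusted p = 3.56e-14). Itga5, the fibronectin receptor subunit α5, rose to 367.9 ± 1.1 CPM in KO samples, against 139.7 ± 2.45 CPM in WT samples (SD, n = 2 each; edgeR adjusted p = 4.13e-20). Ptgs2, which encodes cyclooxygenase 2, rose to 814.7 ± 50.9 CPM in KO samples, against 369.6 ± 29.2 CPM in WT samples (SD, n = 2 each; edgeR adjusted p = 4.29e-18).

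Markers of other cell types differed between the same samples. The shares over all tested genes, for comparison, were 18.3% called higher in KO and 17.4% lower. Of the macrophage and leukocyte markers, 8 of 12 were tested, and 6 rose and 2 did not pass, with a summed level of 177.4 and 179.1 CPM in KO against 102.3 and 97.91 CPM in WT. Most of that sum was Lyz2, whereas Fcgr1 had no count in any library and Ptprc had 11 and 9 counts in KO against 5 and 1 in WT. Of 12 endothelial markers, 9 rose and 1 fell, with a summed level of 507.5 and 518.8 CPM in KO against 405.3 and 379.6 CPM in WT. Of the 12 fibroblast markers, 1 rose and 8 fell. Of 7 tested pericyte and smooth muscle markers, 3 rose and 3 fell, with a summed level of 161 and 161.8 CPM in KO against 130.8 and 131.5 CPM in WT. The 1 cardiomyocyte marker tested fell (log2 fold change −0.74), a call not kept with DESeq2. Summed over the 9 cardiomyocyte markers, the level was 6.046 and 4.89 CPM in KO against 7.075 and 8.295 CPM in WT. All of these cells use AP-1 genes, and in bulk RNA more cells of a type and more RNA per cell cannot be told apart. The part of these markers in the AP-1 values and in the lists was not tested.

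**Figure D4:**
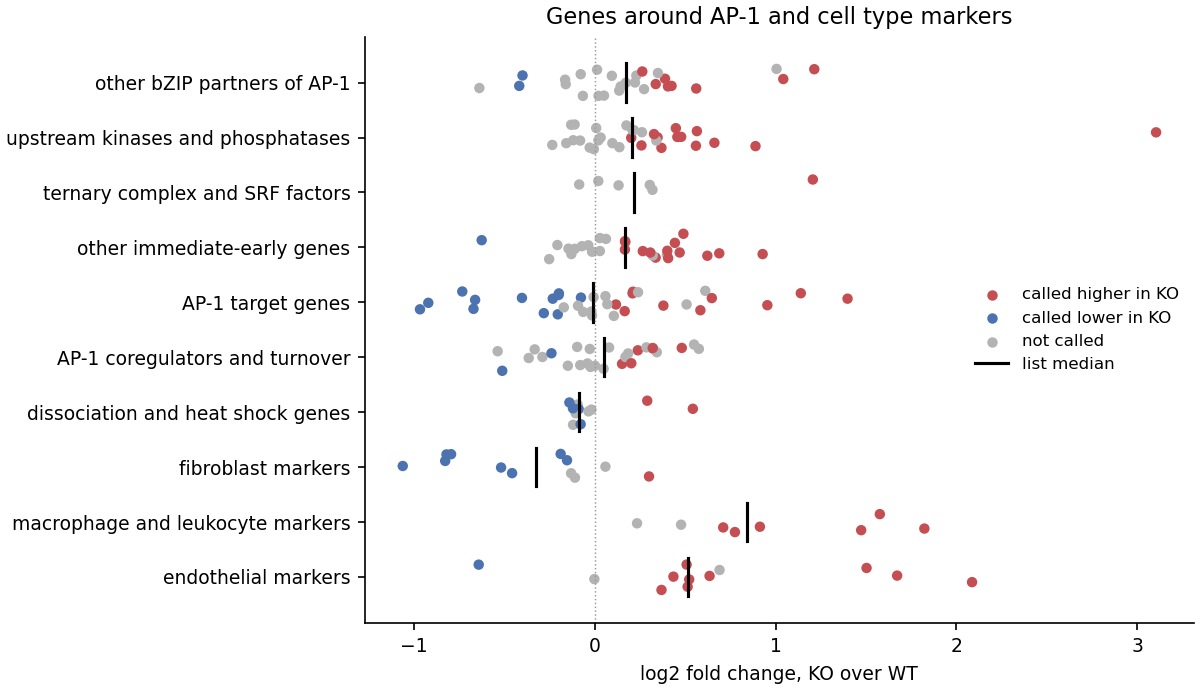
Log2 fold change, KO over WT, of each tested gene in the lists around AP-1 and in marker lists, red where called higher in KO, blue where called lower and grey where not called, with a black bar at the median of the list. The kinase list has 13 red and 0 blue points, the target list 10 red and 12 blue.

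Chromatin at the AP-1 genes was open in both genotypes. There were 121748 deposited peaks in KO and 123935 in WT, each list called by the authors on 1 library, so the lists are described without a test. A peak covered the 500 bases on either side of the annotated gene start at 9 of the 10 genes in KO and at the same 9 in WT. As background, this was so for 92.4% of all genes of the expression test in KO and for 92.4% in WT. The fold enrichments of these peaks, the authors' own values relative to the background of each library, were 22.95 to 30.18 in KO and 18.90 to 31.63 in WT. They stood above 94.60 to 98.41% of the peaks of the KO list and above 93.23 to 99.26% of those of the WT list. These ranks are among peaks of every kind, with a median width of 752 bp in KO and 736 bp in WT. The folds were not compared with those of promoter peaks at other genes.

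The exception was Atf3, whose gene body spans 47744 bases. Its first annotated start had no peak within 500 bases in either list, and the strongest peak of the gene in each list lay at internal starts. It ran over chr1:191180623-191187121 in KO, with its summit 424 bases from the nearest annotated start and a fold of 22.5. In WT it ran over chr1:191182347-191187240, with its summit 93 bases from the nearest start and a fold of 17.7. A further peak inside the gene, over chr1:191215909-191217410 in KO and chr1:191215898-191217410 in WT, had its summit 1575 bases into the gene in KO and 1619 in WT, with a fold of 19.1 in KO and 16.4 in WT. Another, in the neighbouring transcript D730003I15Rik, lay upstream in both lists, its summit at −6592 in KO and −6607 in WT from the gene start, with a fold of 23.4 in KO and 20.9 in WT.

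At the compact genes a single broad peak took in the promoter and most of the gene. Peaks covered all of the annotated body of Junb and of Jund in both lists, all of Jun in KO and 90.6% of it in WT. They covered 93.5% of Fos in KO and 89.5% in WT, and 94.7% of Fosb in KO and 93.9% in WT. The long genes were covered less, Jdp2 to 31.1% in KO and 34.8% in WT and Atf3 to 31.8% in KO and 20.3% in WT. Jdp2, almost silent in RNA, still had a peak over its start with a fold of 25.1 in KO and 25.9 in WT. The opposite-strand gene Gm47863 overlaps this start. The KO summit, at −11 from the start of Jdp2, lay in an exon of Gm47863, and the WT summit in exons of both genes. The peak can therefore not be assigned to Jdp2 alone. In the KO list the largest fold within 10 kb of any member, 37.4, belonged to a peak downstream of Maff, inside Tmem184b, and the WT peak there had a fold of 25.9.

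Within 10 kb of the 10 genes there were 76 peaks in KO and 72 in WT. Of these, 12 in KO had no overlap in the WT list (15.8%, against 23.7% of all KO peaks) and 9 in WT had none in the KO list (12.5%, against 24.4% of all WT peaks). Most peaks found in 1 list were weak: 4 in KO and 3 in WT reached a −log10 q of 5. The 4 in KO lay upstream of Fos (summit at −8930), in the terminal exon and in an intron of Atf3, and downstream of Jdp2, and the highest of them, at chr1:191172096-191172937 in Atf3, had a −log10 q of 9.86. The 3 in WT lay upstream of Fosl1 and inside Fosl2 and Jdp2, and the highest, at chr19:5437004-5437603, had a −log10 q of 7.45. None of these peaks overlapped the 500 bases on either side of the start of a member gene.

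**Figure D5:**
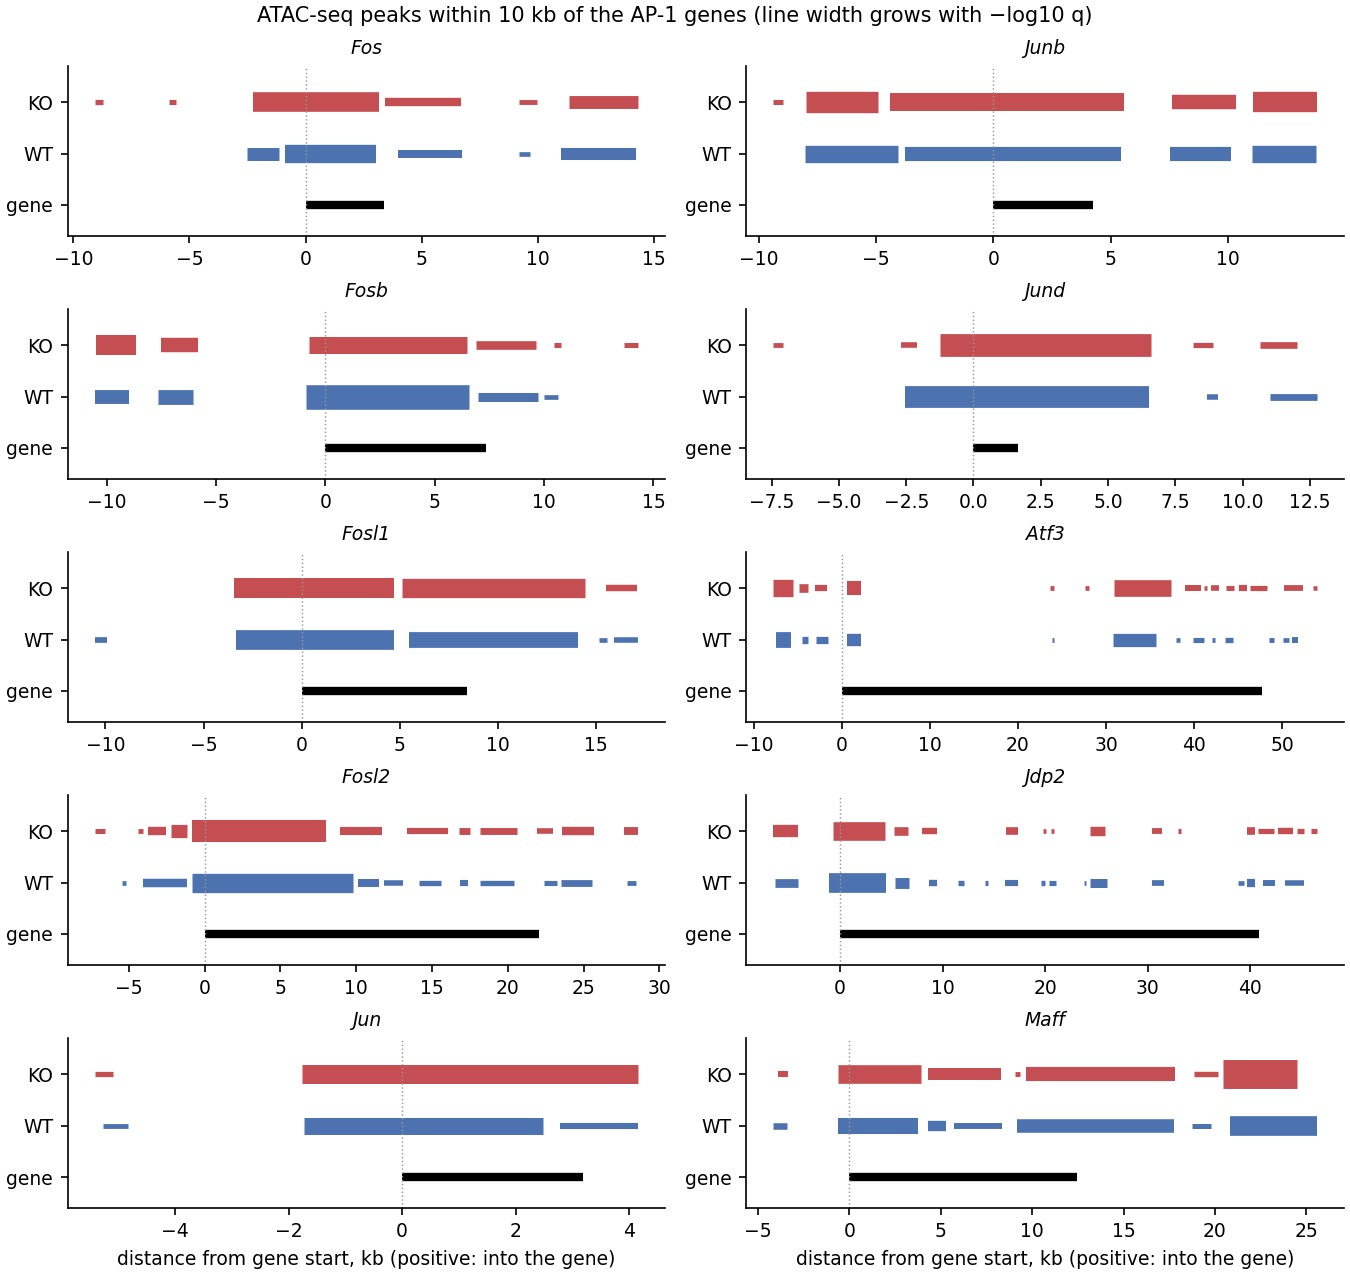
ATAC-seq peaks within 10 kb of each AP-1 gene against the distance from the gene start in kb, KO in red above WT in blue and the gene body in black, with line width growing with the authors' −log10 q. Of 76 peaks in KO and 72 in WT, 64 and 63 have an overlap in the other list.

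The promoters and peaks of the AP-1 genes were searched for AP-1 and SRF elements, and the counts are too small to set the loci apart from the background. RefSeq promoter entries matched 9 members, with 13 windows of 250 bases upstream of a start; Fosl1 had none. TGACTCA, searched on both strands together with TGAGTCA, was in none of the 13 windows, and 4.46% of 32851 promoter windows held it. TGACGTCA, which is its own reverse complement and does not contain TGACTCA, was in 1 of the 13, the Maff window printed above, against 1.55% of all. The CArG box was in none, against 1.47% of all, the Fos and Fosb boxes printed above lying outside these windows. The Jund window, chr8:70697489-70697738, did not reach the gene start at chr8:70698949. A TGACGTCA at −214 from that gene start lay outside it, in the summit window of the WT promoter peak. Around peak summits at the 10 loci, 100 bases on each side, TGACTCA was found in 3 of 76 windows in KO (3.95%, against 10.0% of all KO summits) and in 5 of 72 in WT (6.94%, against 8.87% of all WT summits). TGACGTCA was in 1 window in each list, and so was the CArG box. These matches are a description of the letters and say nothing of binding.

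Over the whole genome the element was more frequent in the KO list. TGACTCA lay within 100 bases of 10.0% of 121680 summits in KO (95% Wilson interval 9.86 to 10.2%) and of 8.87% of 123867 summits in WT (8.71 to 9.03%). In peaks with an overlap in the other list it was 10.3% in KO and 9.56% in WT. Among peaks of 1 list alone it was 9.16% in KO (8.84 to 9.50%) and 6.73% in WT (6.45 to 7.02%). Among those with a −log10 q of at least 5 it was 11.9% in KO (11.3 to 12.6%) and 8.17% in WT (7.49 to 8.91%). The intervals cover counting error only, and with 1 library a genotype a difference between libraries and a difference between genotypes cannot be told apart. TGACGTCA was at 0.303% of summits in KO and 0.292% in WT, and the CArG box at 1.01% in KO and 0.911% in WT. Median GC content of the windows was 50.2% in KO and 49.8% in WT, and the median fold of the peaks was 6.38 in KO and 5.75 in WT; their part in the motif shares was not tested.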

How the data were processed

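RNA-seq was deposited as 1 table of estimated counts per gene, which the authors made from 150 bp paired reads after Trim Galore 0.6 by aligning them to mm10 in STAR 2.5.3a, per the labels' protocols. Which program counted, and on what annotation, is not given in the sources used here. The planned test took whole counts, but between 10.8 and 12.2% of the values were not whole, so they were rounded first. ATAC-seq was deposited as peak lists that the authors called with MACS2 in each library separately, after Bowtie2 2.3 alignment to mm10 and removal of duplicate and mitochondrial reads, per the labels' protocols. Their deposited columns hold an integer score, a fold (ratio) over background, and −log10 p-value and −log10 q-value. The version and threshold of MACS2 are likewise not given; the lowest −log10 q was 1.86 in KO and 1.70 in WT. ATAC-seq depth is not given either.

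Differential expression was fitted in R 4.3.3 by edgeR 4.0.16 (filterByExpr with a minimum count of 10, TMM factors, quasi-likelihood fit of genotype alone, KO over WT, p adjusted by Benjamini and Hochberg across 12192 genes, threshold 0.05). The SE was obtained as |log2 fold change| over √F. Library sizes behind CPM carry the TMM factors, and levels per kb use the union of exons in GENCODE M21, which held 25712 of 25746 identifiers. DESeq2 1.42.0, other scalings and filters, assumed BCVs, a replicate block and leaving out each library were alternatives. Replicates differed beyond sampling noise, with a chi-square over its degrees of freedom of 1.99 in KO and 1.77 in WT (17.4 and 17.8 across genotypes). Each was counted as a sample, but such a spread may be technical and does not show separate animals or cultures. Simulated counts served to check the fit. Coordinates are 1-based on GRCm38, and a peak was in both lists with at least 1 bp of overlap.

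The members and lists were chosen with earlier results of these data known. Text names all members, Acta2, up to 4 called genes of each list with the smallest p and all called in a direction where 5 or fewer were; exceptions are named as such.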

Additional observations from a re-analysis of the deposited data

How the results depend on the processing

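Fosl1, Jun, Junb, Jund and Maff kept their calls and direction under each scaling, filter, DESeq2 and leave-one-out fit. With DESeq2, which also changed the scaling and the filter, 1693 genes were called in all against 4352, 48 of the lists against 75, 6 kinase genes against 13, and 0 coregulator genes against 8. With an assumed BCV of 0.1, 1780 genes were called in all, 2 AP-1 members, 30 list genes, 4 other bZIP genes, 5 kinase genes, 8 immediate-early genes, 10 target genes, 1 coregulator and 1 heat shock gene. With a BCV of 0.2 these were 398 in all, 0 members, 6 list genes, 1 other bZIP gene, 1 kinase gene, 0 immediate-early genes, 3 target genes, 0 coregulators and 0 heat shock genes. Leaving out 1 library at a time called 3 to 5 coregulators and 1 to 2 SRF and ternary complex genes. Fos ranged in these fits over log2 fold changes of −0.14 to 0.29, and the cause was not tested. Within 50 kb there were 216 peaks in KO and 228 in WT. TGACTCA shares were 26.7% in KO and 25.1% in WT over 250 bases on each side, and 10.7% in KO and 9.53% in WT at a −log10 q of at least 5.

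KO and WT samples share replicate numbers only: the deviations of same-numbered samples from their genotype means correlated at −0.0007 across the tested genes. With the replicate block 4408 genes were called, 2256 higher and 2152 lower, and it changed no call among the members.

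Of the 29 genes named from the lists, 24 kept their call with DESeq2, 23 in all 4 leave-one-out fits, 16 at a BCV of 0.1 and 5 at 0.2. Few counts limit Fosb, Jdp2 and Map3k1.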

Other observations

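Among the genes of proteins that work with AP-1 or remove it, 27 were tested, 6 rose, 2 fell and 19 did not pass, with a median log2 fold change of 0.05. Over all tested genes, 18.3% were called higher in KO and 17.4% lower. Yap1, the coactivator of the Hippo pathway, averaged 52.74 ± 5.31 CPM in KO samples and 42.11 ± 4.43 CPM in WT samples (SD, n = 2 each; edgeR adjusted p = 0.00479). Nfatc1, a calcium-dependent partner of AP-1, averaged 12.6 ± 0.396 CPM in KO samples and 9.009 ± 0.868 CPM in WT samples (SD, n = 2 each; edgeR adjusted p = 0.0192). Smad4, the common SMAD of TGF-β signalling, fell to 11.94 ± 3.12 CPM in KO samples, against 17 ± 0.89 CPM in WT samples (SD, n = 2 each; edgeR adjusted p = 0.0121), and Runx1 by 0.24 on the log2 scale (edgeR adjusted p = 0.0153). With DESeq2 the adjusted p was 0.139 for Yap1, 0.3 for Nfatc1, 0.195 for Smad4 and 0.24 for Runx1. Each of the 4 also lost its call in 2 of the 4 leave-one-out fits, except Smad4, which lost it in 1, with a log2 fold change of −0.27 (edgeR adjusted p = 0.242) without KO replicate 1 and −0.80 without KO replicate 2.

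Heat shock genes are known to rise together with AP-1 genes when tissue is dissociated. Of 11 tested here, 2 rose and 4 fell, with a median log2 fold change of −0.09, beside 18.3% called higher and 17.4% called lower over all tested genes. Hspa1a rose by 0.54 (edgeR adjusted p = 3.03e-08), but it is a near-identical copy of Hspa1b, which had a log2 fold change of −0.10 (edgeR adjusted p = 0.865), and their reads may be divided wrongly. Hspb1 averaged 448 ± 16.5 CPM in KO samples and 366.5 ± 9.43 CPM in WT samples (SD, n = 2 each; edgeR adjusted p = 7.85e-07). Hsp90ab1, Hspa8, Hspe1 and Hsp90aa1 fell by 0.12, 0.09, 0.14 and 0.08 on the log2 scale (edgeR adjusted p = 0.000192, 0.000641, 0.00817 and 0.0233). Hspe1 was not called with DESeq2 (adjusted p = 0.0677) or without WT replicate 1 (edgeR adjusted p = 0.0601). Hsp90aa1 was not called with upper quartile factors or with library size alone, nor without KO replicate 1, KO replicate 2 or WT replicate 2.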
